A study of Rattus norvegicus with 6 samples.

Results

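Reg3a and Reg3b are 2 of the 22864 genes in the count table, taken by their symbols (gene identifiers 171162 and 24618), and both passed the filter on low counts. They were selected on their measured values: an earlier look at these libraries placed them among the injury genes that were higher in CPIP+Veh than in Sham+Veh. The values of that contrast are therefore given as a description, with no test.

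Reg3 proteins are small secreted lectins of the C-type fold, best known from the inflamed pancreas and the gut lining, where they bind bacteria. In the rat nervous system Reg3b is made by motor and sensory neurons after axon damage, is carried along the axon and acts on Schwann cells as a growth signal. Cytokines that signal through the shared receptor gp130, such as LIF and CNTF, switch Reg3b on in neurons through JAK kinases and the transcription factor STAT3, and EXTL3 has been proposed as a receptor for Reg proteins.

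The tissue was the ipsilateral L4-L6 dorsal root ganglia of wild-type rats, taken 7 days after the procedure. In rats of the CPIP model (chronic post-ischaemia pain), an O-ring, 5.5 mm wide inside (the size the labels give for males), closed off the hind limb close to the ankle for 3 h under pentobarbital, and Sham+Veh rats were anaesthetised alike but had no ring. Vehicle (Sham+Veh, CPIP+Veh) or etanercept (CPIP+ETA), a fusion protein that captures TNF, was injected intrathecally every day beginning 2 days after modelling. Each of the 3 groups has 2 libraries, numbered 1 and 2. Nothing says that these came from separate animals, so every p-value rests on a spread between samples that could be technical. The sources used here give no strain, age, etanercept dose or composition of the vehicle. Libraries held 18285251 to 19981250 counts, and all 10 sensory neuron markers had reads in every library, summing to 30613 to 34181 CPM (counts scaled to the library total, here with TMM factors).

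In the RefSeq gene table of the GRCr8 build, Reg3b, the pseudogene Reg3b-ps1, Reg3a, Reg1a and Reg3g are neighbours in that order on chromosome 4, apart from a lncRNA next to Reg3g. The pseudogene was not among the counted genes. Reg3 genes are close copies, and how the counting split reads shared between them is not given, so the division of reads between Reg3a and Reg3b is uncertain.

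The 250 bases before each gene's start are shown because the members were high in the same libraries and STAT3 acts on Reg3b as said above. The sequences are RefSeq's for GRCr8, chr4:112419526-112419775 for Reg3b and chr4:112430147-112430396 for Reg3a, both on the plus strand, with Reg3a at the first of the starts listed. Capitals mark matches to TTCNNNGAA (the palindrome that STAT factors bind) and to TATAAA (the TATA box), searched on both strands.
Reg3b: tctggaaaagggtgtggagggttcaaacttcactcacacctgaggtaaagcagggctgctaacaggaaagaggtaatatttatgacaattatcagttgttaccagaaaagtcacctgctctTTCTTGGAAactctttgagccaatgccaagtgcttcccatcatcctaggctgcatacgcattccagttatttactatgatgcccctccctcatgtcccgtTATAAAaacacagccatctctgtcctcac
Reg3a: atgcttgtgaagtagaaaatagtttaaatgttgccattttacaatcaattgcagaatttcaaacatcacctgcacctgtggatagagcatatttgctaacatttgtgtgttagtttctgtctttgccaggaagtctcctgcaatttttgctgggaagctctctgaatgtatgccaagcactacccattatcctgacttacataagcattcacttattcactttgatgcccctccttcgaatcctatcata

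Reg3b held TTCTTGGAA from 129 to 121 bases before its start, and Reg3a held no match to TTCNNNGAA in its window. The window of the neighbour Reg1a, which had 0 reads in all 6 libraries, held a match as well (TTCTGGGAA, 242 to 234 bases before its start), and that of Reg3g held none. In a global alignment of the windows, which were identical at 151 of 290 aligned positions (52.1%), the bases of Reg3a under the Reg3b match read tgctgggaa. They differ from the Reg3b match by T2G and T5G, with positions counted from 1 at its 5′ end and the Reg3b base first. TTCNNNGAA occurred in 7.52% of the windows of this length before 27456 genes. TATAAA was found 29 bases before the start of Reg3b. At any position and on either strand, TATAAA occurred in 13.1% of all windows. It was not found in the Reg3a window. Read by eye, that window ends inside the stretch that lines up with TATAAA in Reg3b and Reg3g. With the start used, this stretch was not searched in full in Reg3a, so no conclusion is drawn on its TATA box. TATAAA was also found 29 bases before the start of Reg1a and 32 bases before that of Reg3g. Neither window held TGANTCA, an AP-1 site (6.36% of windows), or TGACGTCA, a cyclic AMP response element that ATF factors bind (1.7%). These are matches of letters and were not tested as binding sites.

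Reg3b was counted 15 and 17 times in Sham+Veh 1 and 2, 49 and 82 times in CPIP+Veh 1 and 2, and, with etanercept, 27 and 28 times in CPIP+ETA 1 and 2. In TMM-scaled CPM this is 0.812 and 0.930, 2.48 and 4.13, and 1.36 and 1.52. The 3 groups stood in the order CPIP+Veh, CPIP+ETA, Sham+Veh without overlap, an order shared by 1.44% of the 15531 genes tested. Reg3b was picked as higher in CPIP+Veh than in Sham+Veh, so part of this order came with the choice. The share over unselected genes therefore does not measure how rare the order is for Reg3b. Group means were 0.871 ± 0.083, 3.31 ± 1.2 and 1.44 ± 0.12 CPM (SD, n = 2) for Sham+Veh, CPIP+Veh and CPIP+ETA.

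Reg3a was counted 18 and 15 times in Sham+Veh 1 and 2, 49 and 54 times in CPIP+Veh, and 31 and 14 times in CPIP+ETA, or 0.974 and 0.820, 2.48 and 2.72, and 1.56 and 0.762 CPM. Both CPIP+Veh libraries again lay above the other 4, as in 6.7% of the genes tested, but the CPIP+ETA libraries lay on either side of sham. Reg3a was picked by the same contrast, so the 6.7% of unselected genes has the same limit. Group means were 0.897 ± 0.11, 2.60 ± 0.17 and 1.16 ± 0.56 CPM (SD, n = 2) in the same order. In whole ganglia, fewer cells that make a transcript and less transcript per cell cannot be told apart.

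**Figure D1:**
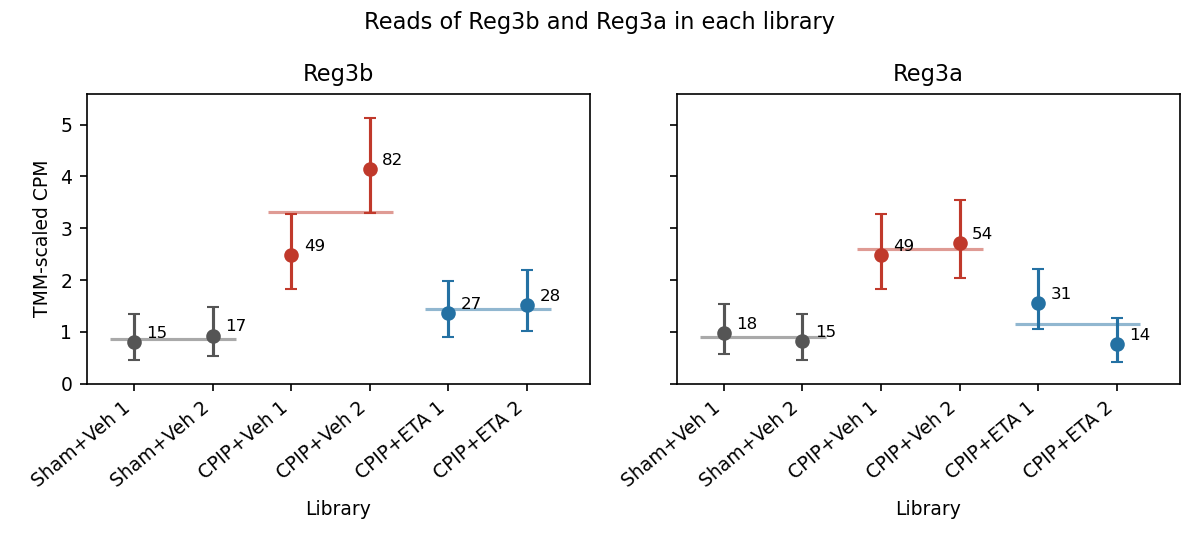
TMM-scaled CPM (vertical axis) of Reg3b and Reg3a in each of the 6 libraries (horizontal axis), with exact Poisson 95% intervals that cover counting error only, rounded counts beside the points and group means as lines. The CPIP+Veh points are the highest for both genes, and CPIP+ETA 2 is the lowest point for Reg3a at 14 counts.

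Counting error alone is wide at these depths. The exact 95% Poisson interval of the 15 Reg3b reads in Sham+Veh 1 is 8.40 to 24.7 reads, and that of the 82 reads in CPIP+Veh 2 is 65.2 to 101.8. Reads without molecular identifiers are not independent molecules, so these intervals cover counting error only. Within groups, the Reg3b ratio of library 2 to library 1 was 1.67 in CPIP+Veh (95% interval 1.16 to 2.43, exact conditional binomial), so those libraries differed by more than counting error. The Reg3a ratio in CPIP+ETA was 0.488 (0.240 to 0.945), a difference beyond counting error in the opposite direction. The other 4 within-group ratios, from 0.842 to 1.15, had intervals that included equality.

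The other genes of the family were hardly counted. Reg1a and Reg4 had 0 reads in all 6 libraries, and Reg3g had 1 read in CPIP+ETA 1 and 0 elsewhere. A count of 0 allows up to 3 reads as a one-sided 95% limit, or 0.151 to 0.164 CPM depending on the library, and up to 3.69 reads by the two-sided Poisson interval used for the other counts. Of these 5 genes, Reg3b and Reg3a were the ones with reads in every library, and Reg1b was not analysed here.

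Reg3b made up 49.2% of the reads of both members in Sham+Veh (32 of 65, exact 95% binomial interval 36.6 to 61.9), 56.0% in CPIP+Veh (131 of 234, 49.4 to 62.4) and 55.0% in CPIP+ETA (55 of 100, 44.7 to 65.0). By library the share ran from 45.5% in Sham+Veh 1 to 66.7% in CPIP+ETA 2 (28 of 42, 50.5 to 80.4). The group intervals overlap, so a shift between the members was not detectable at this depth.

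The comparison of CPIP+Veh with Sham+Veh addresses what the ischaemia model does to the ganglion, and it is the contrast that picked these genes. The fitted log2 fold change of Reg3b was 1.92 (SE 0.35), a 3.78-fold higher level in CPIP+Veh, and that of Reg3a was 1.53 (SE 0.39), 2.88-fold higher. Summed reads gave ratios of 3.80 and 2.90, likewise as a description. Reg3b ranked 55th and Reg3a 78th from the top among 15531 fold changes. Both members were higher with no overlap of groups, as were 17.6% of all genes tested. Leaving out CPIP+Veh 2 gave Reg3b 1.50, and leaving out CPIP+Veh 1 gave 2.24.

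The comparison of CPIP+ETA with CPIP+Veh addresses what capture of TNF changes in the model. Both members had lower values in the etanercept libraries without overlap, as did 16.9% of all genes tested. Reg3b stood at 1.44 ± 0.12 against 3.31 ± 1.2 CPM (SD, n = 2), a log2 fold change of -1.20 (SE 0.33; edgeR adjusted p = 0.938). Reg3a stood at 1.16 ± 0.56 against 2.60 ± 0.17 CPM, a log2 fold change of -1.15 (SE 0.38; edgeR adjusted p = 0.938). In folds the levels were 2.29 and 2.22 times lower. Neither passed the threshold over all genes, where edgeR called 0 (0%), DESeq2 called 21 and limma-voom 0, no member among them. Both members had an unadjusted edgeR p under 0.05, as did 5.15% of all genes. The CPIP+Veh libraries also entered the contrast that picked the members, so a high value by chance in them lowers this comparison, and the p-values are not independent of the choice.

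The size of the etanercept difference depended on the library. For Reg3b it was -0.78 with CPIP+Veh 2 left out and -1.51 with CPIP+Veh 1 left out. For Reg3a it was -0.73 without CPIP+ETA 2 and -1.76 without CPIP+ETA 1. The sign held in every fit run.

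Against sham, the etanercept libraries had a Reg3b level of 1.44 ± 0.12 against 0.871 ± 0.083 CPM (SD, n = 2), with no overlap, as for 17.2% of genes on the higher side. The log2 fold change was 0.72 (SE 0.36; edgeR adjusted p = 0.822), and the ratio of summed reads was 1.65 (95% counting interval 1.05 to 2.64). Reg3a overlapped sham, with a log2 fold change of 0.38 (SE 0.41; edgeR adjusted p = 0.913) and a ratio of summed reads of 1.31 (0.818 to 2.12). Without CPIP+ETA 1 the Reg3a value turned to -0.23, and without CPIP+ETA 2 it was 0.80. Neither member passed, and edgeR called 0.0193% of genes in this comparison.

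**Figure D2:**
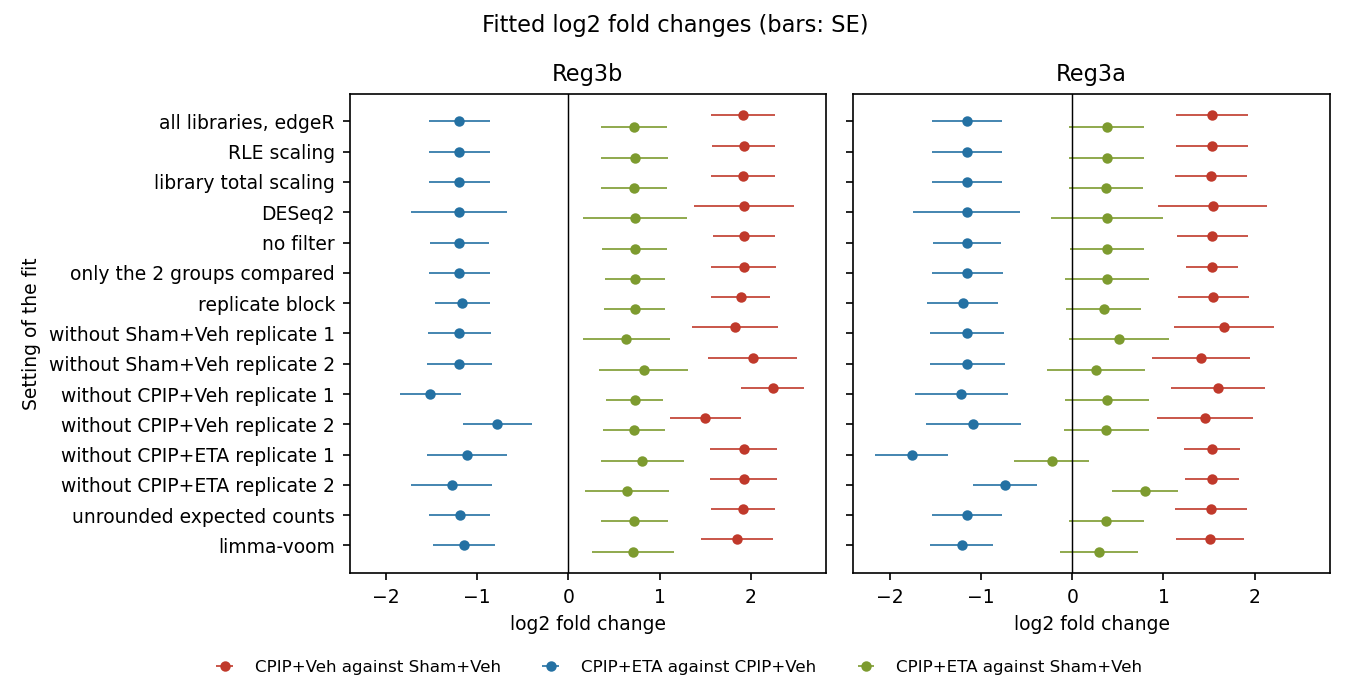
Fitted log2 fold changes (horizontal axis; bars are SE) of Reg3b and Reg3a in the 3 comparisons under each setting of the fit (vertical axis). Reg3b keeps its sign in every setting, and Reg3a against sham turns to -0.23 without CPIP+ETA 1.

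Most cytokines that could act upstream of Reg3b had few reads, and Cntf, a cytokine that Schwann cells store, had the most with 1066 to 1314 reads per library. Of 11 ligands of the gp130 and IL-10 families, 4 passed the filter on low counts. Of these edgeR called 0 in CPIP+Veh against Sham+Veh and 0 in CPIP+ETA against CPIP+Veh, where it called 0.0193% and 0% of all genes. At an unadjusted p under 0.05 these were 0 and 1 ligands, where 4.93% and 5.15% of all genes lay under that p. Il6, an inflammatory cytokine, had 1 and 2 reads in Sham+Veh, 0 and 7 in CPIP+Veh, with 0 and 18 in CPIP+ETA. Lif, the leukaemia inhibitory factor of injured nerve, had 8 and 2, 3 and 5, and 1 and 12 reads. Both were highest in CPIP+ETA 2. In that library Reg3b had 28 reads, against 27 in CPIP+ETA 1, and Reg3a had its lowest count, 14, against 15 in Sham+Veh 2. Il6 and Lif did not pass the filter, and a link to the members was not tested. Clcf1, a cytokine that signals through the CNTF receptor, was chosen after its values were seen. It stood at 1.14 and 1.42 CPM in Sham+Veh, 1.77 and 1.82 in CPIP+Veh, with 0.705 and 1.09 in CPIP+ETA. Its log2 fold change was 0.49 (SE 0.34) against sham and -0.999 (SE 0.35; edgeR adjusted p = 0.938) with etanercept.

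The receptors had median differences near 0. Of 9 listed, 8 were tested, with a median log2 fold change of 0.08 in CPIP+Veh against Sham+Veh and 0.02 in CPIP+ETA against CPIP+Veh, where all genes had -0.00314 and -0.00165. None was called by edgeR, and at an unadjusted p under 0.05 1 was lower against sham (2.59% of all genes were) and 1 was higher with etanercept (2.41% of all genes were). Il6st, which encodes gp130 itself, stood at 296 ± 4.9 CPM in Sham+Veh, 284 ± 0.49 in CPIP+Veh and 293 ± 12 in CPIP+ETA (SD, n = 2). The partner receptor Lifr stood at 135 ± 23, 157 ± 1.2 and 164 ± 8.0 CPM, and the oncostatin M receptor Osmr at 27.3 ± 8.5, 31.9 ± 6.1 and 30.4 ± 0.45 CPM. Extl3 stood at 73.6 ± 2.4, 76.9 ± 2.0 and 73.0 ± 3.2 CPM. None of these 4 passed in any comparison, and their adjusted p-values in edgeR ran from 0.769 to 0.984.

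The 10 JAK-STAT transducers and inhibitors had medians of 0.02 and 0.04 in these comparisons, and edgeR called none, with 0 and 1 at an unadjusted p under 0.05 (4.93% and 5.15% of all genes). With etanercept their values ran from -0.55 for Cish to 0.61 for Socs3. Stat3 stood at 270 ± 8.9, 281 ± 13 and 278 ± 8.5 CPM (SD, n = 2) in Sham+Veh, CPIP+Veh and CPIP+ETA. Socs3, the inhibitor that STAT3 itself induces, had 6.12 and 8.70 CPM in Sham+Veh, 7.89 and 8.67 in CPIP+Veh, with 7.05 and 18.3 in CPIP+ETA. Its highest value was again in CPIP+ETA 2, and the groups overlapped.

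The 18 STAT3 target genes differed between the etanercept libraries. With etanercept 16 had a log2 fold change above 0 (median 0.28), as did 49.5% of all genes. This count rested on CPIP+ETA 2. In that library 16 lay above the CPIP+Veh mean, while in CPIP+ETA 1 6 did (48.3% and 49% of all genes). Without CPIP+ETA 2, 6 had a log2 fold change above 0 (median -0.0697), as did 48.6% of all genes. Without CPIP+ETA 1, 16 did (median 0.58), as did 49.1% of all genes. At an unadjusted p under 0.05 2 were higher and 0 lower, where 2.41% and 2.74% of all genes were. These counts changed with the library left out, in fits that leave a group with 1 library. Against sham in CPIP+Veh the median of the targets was 0.01, and -0.0662 without CPIP+Veh 2. At that p 1 was higher and 0 lower (2.34% and 2.59% of all genes), and with a library left out 0 to 3 were higher and 0 to 2 lower. In neither comparison did edgeR call any of the 18, and DESeq2 and limma-voom called 0 of the ligands, receptors, JAK-STAT genes and targets in both. Of all 15531 genes tested, DESeq2 called 49 in CPIP+Veh against Sham+Veh and 21 with etanercept, and limma-voom called 2 and 0.

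**Figure D3:**
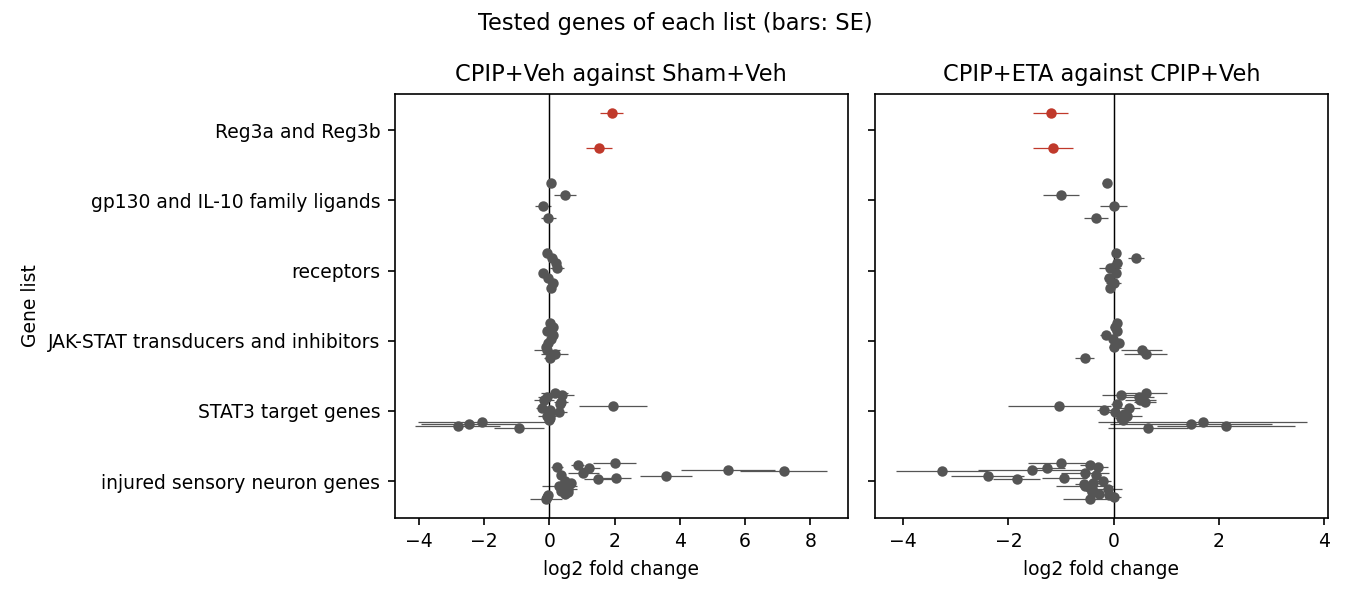
Log2 fold changes (horizontal axis; bars are SE) of the tested members of each list (vertical axis) in 2 comparisons, with Reg3b and Reg3a in red. The medians of the receptors and of the JAK-STAT genes are close to 0, with single JAK-STAT genes from -0.55 to 0.61 with etanercept, while the injured neuron genes lie mostly on the same side as Reg3b and Reg3a.

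Genes that injured sensory neurons are known to express lay on the same side as the members. Of 25 listed genes, 23 were tested. In CPIP+Veh against Sham+Veh 20 lay above 0 (median 0.56), as did 49% of all genes, and 16 were higher and 0 lower at an unadjusted p under 0.05, where 2.34% of all genes were higher. Without CPIP+Veh 2, 20 lay above 0 (median 0.41), as did 47.7% of all genes. Without Sham+Veh 2, 20 did (median 0.63), as did 50.7% of all genes. The number under that p depended on the library left out. With etanercept 22 lay below 0 (median -0.45), as did 50.5% of all genes, and 11 were lower and 0 higher at that p, where 2.74% of all genes were lower. Without CPIP+Veh 2, 18 lay below 0 (median -0.24), as did 49.2% of all genes. Without CPIP+ETA 1, 21 did (median -0.30), as did 50.8% of all genes. The number under that p again depended on the library left out. Over all genes edgeR and limma-voom called 0 of them in either comparison. DESeq2 called 5 against sham (Npy, Vip, Ecel1, Stmn4 and Cacna2d1) and 0 with etanercept. Of all 15531 genes tested it called 49 and 21 in these comparisons. These comparisons share the CPIP+Veh libraries, and several of these genes were known from earlier results to be high there.

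Atf3, a transcription factor that marks axon injury, stood at 7.69 and 6.89 CPM in Sham+Veh, 16.2 and 42.0 in CPIP+Veh, with 6.19 and 23.1 in CPIP+ETA. Sox11, a factor of axon regrowth, stood at 2.65 and 2.73, 4.35 and 5.50, and 3.78 and 3.48 CPM, the same order of groups without overlap as Reg3b. The neuropeptide Gal stood at 5.47 and 3.88, 7.49 and 14.0, and 3.73 and 5.28 CPM. Npy, a neuropeptide that appears in large injured neurons, stood at 0.325 and 0.602, 6.07 and 35.7, and 1.41 and 12.9 CPM. Vip, a vasodilator peptide, was counted 0 and 1, 65 and 129, and 1 and 18 times. In these 5 genes CPIP+Veh 2 was the highest of the 6 libraries, as it was for Reg3b and Reg3a.

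The libraries of a group differed in the same direction for most injury genes. CPIP+Veh 2 was above CPIP+Veh 1 for 22 of the 23, and CPIP+ETA 2 was above CPIP+ETA 1 for 21, where 50.4% and 50.0% of all genes tested were. CPIP+Veh 2 held the highest value of 21 of them. The share of all genes with their highest value in that library was not measured, so this count has no background. Reg3b was higher in library 2 of both groups. Reg3a was higher in CPIP+Veh 2, by 1.10 times, and lower in CPIP+ETA 2, at 0.488 times the level of CPIP+ETA 1.

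**Figure D4:**
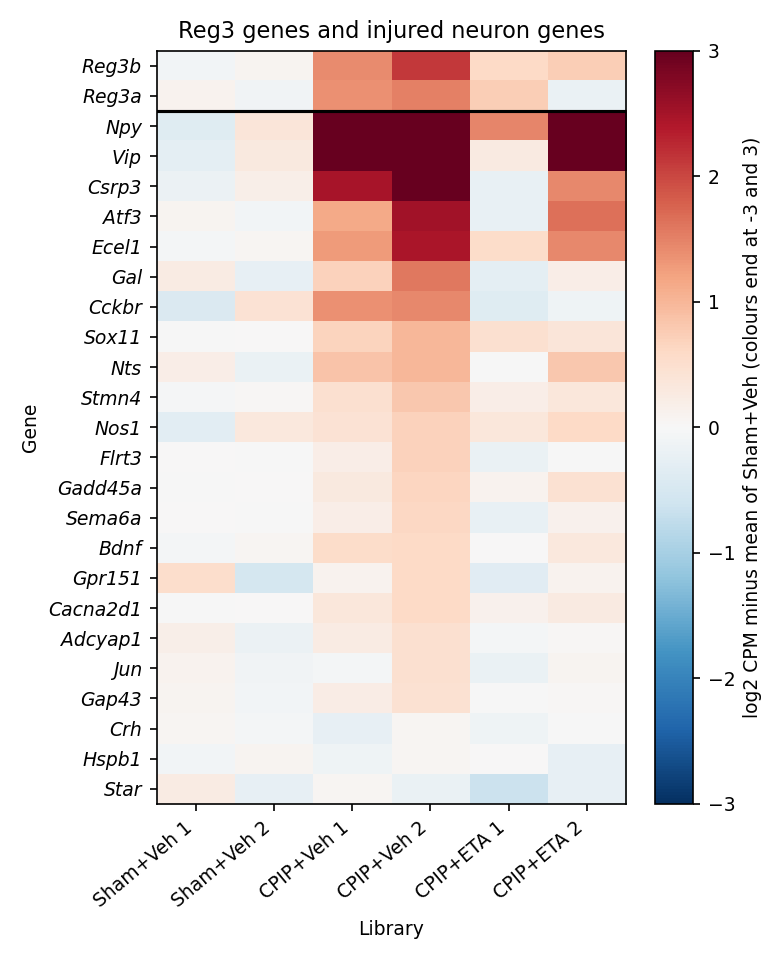
Log2 CPM of each gene (rows) minus its mean in Sham+Veh, by library (columns), for Reg3b and Reg3a above the line and 23 injured neuron genes below it. CPIP+Veh 2 holds the highest value for 21 of the 23, a share not measured over all genes. In CPIP+ETA 2 Reg3a lies below the sham mean, at 14 reads against 18 and 15 in Sham+Veh. Cckbr, Flrt3, Hspb1, Crh and Star also lie below their sham means there, and the other injured neuron genes, such as Atf3, Npy and Vip, lie above.

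The pattern over the libraries was also compared with that of other genes, by Pearson correlation of log2 CPM over 6 libraries. The 13311 genes compared had a mean of at least 1 CPM. Genes with provisional symbols (starting with LOC, RGD or AABR) were left out. The comparison is a description: the 6 points share 3 groups, and many genes can match a pattern of 6 values. Reg3b had 129 genes with a correlation over 0.9, and the 5 closest were Stmn4 (0.993), Kif3a (0.991), Tspan13 (0.988), Asah1 (0.987) and Cacna2d1 (0.987). Stmn4 is a stathmin that acts on microtubules, Kif3a a kinesin motor, Asah1 the acid ceramidase, and Cacna2d1 the calcium channel subunit that gabapentin binds. Stmn4 stood at 21.4 and 22.7 CPM in Sham+Veh, 30.8 and 38.8 in CPIP+Veh, with 25.4 and 27.9 in CPIP+ETA, the order of Reg3b with a smaller spread. Its log2 fold change against sham was 0.66, where that of Reg3b was 1.92.

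Reg3a had 95 genes over 0.9. The 5 closest were Kif5c, a neuronal kinesin heavy chain (0.984), the translation factor Eef1g (0.977), the cyclophilin Ppia (0.977), the growth factor Tgfb2 (0.976) and Stk36 (0.975). None of the 23 injured neuron genes was over 0.9 with Reg3a (median 0.637), while 8 were with Reg3b (median 0.849). Over all genes compared the medians were -0.00617 with Reg3a and -0.0133 with Reg3b. The members were picked as high in CPIP+Veh. The list was chosen with earlier results known, so part of this likeness came with the choice. Reg3b and Reg3a correlated at 0.840, and Reg3b ranked 253rd of 13311 for Reg3a. Counting error at so few reads enters all of these values.

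Reg3 genes are highly expressed in other tissues, and markers of those were looked for. Of 18 pancreatic acinar markers, 3 had 0 reads in every library. The defining enzymes were at or near 0: Prss1 was counted 1 time in all, Cpa1 2 times and Ctrb1 1 time, all in 1 library each. The summed acinar level ran from 11.9 to 17.8 CPM in Sham+Veh, 13.0 to 14.5 in CPIP+Veh and 12.3 to 13.1 in CPIP+ETA, most of it Pnlip and Cela1, with the highest value in Sham+Veh 1. The 8 gut epithelium markers summed to 2.46 to 3.30, 2.63 to 6.10 and 3.21 to 3.37 CPM, highest in CPIP+Veh 2, with Cdx2 at 0 reads throughout. The 8 keratinocyte markers summed to 6.78 to 7.42, 6.83 to 7.46 and 6.80 to 7.65 CPM.

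Cells of the ganglion itself were followed in the same way. Neutrophil markers (7) summed to 5.63 to 7.33 CPM in Sham+Veh, 3.998 to 14.7 in CPIP+Veh and 9.52 to 14.0 in CPIP+ETA. Their sum was highest in CPIP+Veh 2, as Reg3b was. It was lowest in CPIP+Veh 1, where Reg3b stood at 2.48 CPM, above both sham libraries. In CPIP+ETA 2 the sum was 14.0 CPM, and Reg3b stood at 1.52 CPM. Macrophage markers (9) summed to 148 to 157, 142 to 161 and 188 to 194 CPM, highest in the etanercept libraries. Myelin markers (8) summed to 11727 to 14146, 11351 to 13770 and 9371 to 13628 CPM, and satellite glia markers (7) to 7012 to 7619, 6788 to 6902 and 6627 to 6744 CPM. Their part in the Reg3 values was not tested.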

How the data were processed

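RNA sequencing of 6 rat dorsal root ganglion libraries gave a table of expected counts, which are estimates of reads per gene and often not whole numbers, deposited by the authors. The submitters' processing notes name the build Rnor_6.0. Aligner, counter, strand setting and treatment of shared reads: not given in the sources used here. Blank cells (2907 genes) were read as 0 and values were rounded to whole counts. Library totals ran from 18285251 to 19981250.

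Members and lists were chosen with earlier results of these data known. Counts were fitted with the quasi-likelihood test of edgeR 4.0.16 in R 4.3.3, with group as the only term over all 6 libraries, TMM scaling and filterByExpr (minimum count 10, minimum total 15), which left 15531 of 22864 genes. P-values were Benjamini-Hochberg adjusted over these, with a threshold of 0.05, and two-sided. SE was taken as the absolute log2 fold change over the root of F. Alternatives were RLE and library-total scaling, DESeq2 1.42.0, no filter, fits of just the groups being compared, the title number as a block, and each library left out. Unrounded counts, limma-voom (limma 3.58.1), 1 crossed block and the gene list counts with each library left out were added after seeing the data. The procedure was run on simulated counts with the same spread between samples for every gene. That spread was below the coefficient of variation fitted for Reg3a (25.8%) and Reg3b (24.8%), so the simulation does not cover genes like the members. Reg3a and Reg3b are described in full, 13 pathway and injury genes were named by a fixed list, and for each member the 5 genes with the highest Pearson correlation across the libraries were named. Promoter windows are RefSeq sequences of the GRCr8 build, with motifs chosen after the sequences were seen, and figures were drawn with matplotlib 3.10.9.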

Additional observations from a re-analysis of the deposited data

How the results depend on the processing

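Leaving out each library in turn gave Reg3b 1.50 to 2.24 and Reg3a 1.41 to 1.66 in CPIP+Veh against Sham+Veh, -1.51 to -0.78 and -1.76 to -0.73 in CPIP+ETA against CPIP+Veh, and 0.64 to 0.83 and -0.23 to 0.80 in CPIP+ETA against Sham+Veh, where the negative Reg3a value came without CPIP+ETA 1. Under the 8 other alternatives each of these kept its sign, and in no alternative did a member pass in the comparisons tested; the adjusted p ran from 0.537 to 1. The number of genes called was 3, 0 and 3 in that order of comparisons, against 49, 21 and 50 with DESeq2. In CPIP+ETA against Sham+Veh it was 1 with only those groups and 1 with limma-voom. With a library left out the counts were 1 to 3, 0 to 0 and 1 to 2.

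With the title number as a replicate block, Reg3b had 1.89, -1.16 and 0.73 and Reg3a 1.55, -1.20 and 0.35, with no call gained or lost and 3, 0 and 3 genes called. Deviations of same-numbered libraries correlated at 0.03 (Sham+Veh with CPIP+Veh), -0.11 (Sham+Veh with CPIP+ETA) and 0.05 (CPIP+Veh with CPIP+ETA), so the numbers are not shown to pair libraries. With the Sham+Veh numbers crossed, a choice made after seeing the data, 1 gene was called in CPIP+ETA against Sham+Veh.

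Of 461 recomputed values for 11 other named genes, 442 kept their direction and side of the threshold, 2 passed with DESeq2 (Npy and Vip against sham) and 17 changed sign without being called, all with 1 library left out. Their ranges were, in CPIP+Veh against Sham+Veh, -0.0615 to 0.59 for Osmr and -0.0631 to 0.44 for Socs3. In CPIP+ETA against CPIP+Veh they were -0.00041 to 0.0893 for Il6st, -0.25 to 0.14 for Osmr, -0.0566 to 0.0304 for Stat3, -0.23 to 1.14 for Socs3 and -3.88 to 0.23 for Npy. In CPIP+ETA against Sham+Veh they were -0.0527 to 0.0401 for Extl3, -0.0544 to 0.0355 for Il6st, -0.13 to 0.52 for Osmr, -0.0665 to 1.31 for Socs3, -0.23 to 1.67 for Atf3 and -0.32 to 0.22 for Gal. The cause was not tested. With 14 to 82 reads per member and library, depth limits every value of Reg3a and Reg3b.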
